A study of Mus musculus with 2 samples.

Results

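Haemoglobin-dominated barcodes were chosen by their globin content. They were the droplet barcodes in which the deposited matrices held at least 2000 unique molecular identifiers (UMIs, 1 per captured RNA molecule) and in which at least 50% of those UMIs came from genes whose names start with Hba- or Hbb-, with no lower limit on the number of genes. There were 993 such barcodes among the 38619 barcodes with 2000 or more UMIs. The Male library held 426 of 18549 (2.30%, exact Clopper-Pearson 95% interval 2.09 to 2.52%) and the Female library 567 of 20070 (2.83%, 2.60 to 3.06%). With 1 library per sex these shares carry counting error only and were not tested. The barcodes come from single-cell RNA sequencing of the genital tubercle, the embryonic outgrowth of the external genitalia, taken at embryonic day 14.5 (Theiler stage 22). Embryos were wild type and of the C57BL/6 strain and were sexed by genotyping. Each library was 1 pool of 3 embryos of a sex, and both pools were drawn from 2 litters, so that differences between embryos cannot be seen. The tissue was dissociated with collagenase XI and loaded on a droplet 3′-end kit.

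Red blood cells of the embryo come in waves. Primitive erythroid cells arise in the yolk sac, circulate with their nuclei and carry embryonic globins (epsilon-y and beta-h1 with zeta), whereas definitive cells made in the fetal liver lose their nuclei before or as they enter the blood and carry adult globins. Both kinds store haem iron and strip down their protein and organelle content as they mature, and at mid-gestation both circulate together.

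The label was set beside erythroid genes that the rule did not use. Of the 7 measured non-globin erythroid markers, 5 could be tested, and all 5, Alas2, Slc4a1 and Car2 among them, were higher than in reference barcodes. The 7 markers summed to 10272 and 8527 CPM (UMIs of a gene per 1000000 non-globin UMIs) in Male and Female haemoglobin-dominated barcodes, against 5.56 and 4.84 CPM in reference barcodes. In near-empty barcodes they summed to 49.3 and 52.6 CPM. At such levels a marker could reach the mean of 20 CPM needed for a test only through the haemoglobin-dominated barcodes. The 5 of 5 thus follows largely from that limit, and 9.67% of all genes tested were higher. Klf1 and Gata1, the erythroid master factors, were too low to test, at 36.5 and 44.5 CPM and at 9.73 and 16.9 CPM in haemoglobin-dominated barcodes. The 12 early erythroid and progenitor genes summed to 46.2 and 53.7 CPM, against 95.4 and 75.9 CPM in reference barcodes. Runx1, Epor and Cd34 held most of this, Runx1 at 17.02 and 15.3 CPM against 32.6 and 25.6 CPM, Epor at 12.2 and 15.3 CPM against 1.88 and 1.85 CPM, and Cd34 at 4.86 and 13.8 CPM against 27.3 and 16.98 CPM. Hlf, Flt3, Spi1 and Nkx2-3 had 0 UMIs, Kit had 2 UMIs in the Male library and 0 in the Female library, and Myb had 0 and 1. The globin genes Hba-a1, Hbb-bs and Hbb-y, which mark the barcodes, are part of the rule and are described below. Whether the cells lay inside vessels was not measured. Reference barcodes, 17047 Male and 18394 Female, had 2000 or more UMIs, 500 or more genes, at most 10% mitochondrial UMIs and under 1% globin UMIs. Near-empty barcodes, 1181964 and 1345271 with 1 to 100 UMIs, stood for the free RNA of each library. They held 2489908 and 2402027 UMIs in all, and 6624 and 6510 of them held 10 to 50 UMIs. Whether their UMIs were free RNA was not tested. The libraries held 130105692 and 144515562 UMIs, and the haemoglobin-dominated barcodes contributed 411300 and 651957 non-globin UMIs. Of the haemoglobin-dominated barcode sequences 0 occurred in both libraries and of the reference barcode sequences 81, counts that also depend on how many barcodes each kind has. Random draws from all listed barcodes would give 0.0355 and 46.1, so the 0 says little. Why 81 exceeded that number was not tested.

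The 8 Hba- and Hbb- genes in the matrices lie in 2 clusters, the alpha-like genes on chromosome 11 and the beta-like genes on chromosome 7. Hba-x encodes zeta globin and Hba-a1 and Hba-a2 the adult alpha chains. Hbb-y and Hbb-bh1 encode the embryonic epsilon-y and beta-h1 chains, and Hbb-bs and Hbb-bt the adult beta chains. The 120 bases before the start of 4 of these genes are shown because the barcodes were divided by the embryonic and adult beta-like genes, of which Hbb-y and Hbb-bs are examples, and because Hba-x, compared here with Hba-a1, differed between the kinds without being used to divide them. They are RefSeq sequences on GRCm38.p6, each 5′ to 3′ on the strand of its gene. Hbb-y is chr7:103853208-103853327 on the minus strand, Hbb-bs chr7:103827929-103828048 on the minus strand, Hba-x chr11:32276480-32276599 on the plus strand and Hba-a1 chr11:32283552-32283671 on the plus strand. Capitals mark CACCC, the core bound by Krüppel-like factors, CCAAT, a general promoter element, and the core of GATA factors, written GATAA, each searched on both strands.
Hbb-y: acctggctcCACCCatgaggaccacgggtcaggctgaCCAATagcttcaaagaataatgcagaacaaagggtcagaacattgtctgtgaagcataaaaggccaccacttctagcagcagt
Hbb-bs: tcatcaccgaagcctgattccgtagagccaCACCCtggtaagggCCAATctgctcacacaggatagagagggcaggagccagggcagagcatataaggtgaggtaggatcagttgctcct
Hba-x: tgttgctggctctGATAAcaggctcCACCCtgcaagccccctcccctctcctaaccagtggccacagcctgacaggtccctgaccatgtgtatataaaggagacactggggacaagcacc
Hba-a1: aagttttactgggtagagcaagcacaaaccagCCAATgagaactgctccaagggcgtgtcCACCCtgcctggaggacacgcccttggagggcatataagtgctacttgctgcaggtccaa
Each of these windows held a CACCC. It ended 107 bases before the start in Hbb-y, 86 in Hbb-bs, 91 in Hba-x and 56 in Hba-a1. CCAAT was found in the windows of Hbb-y, Hbb-bs and Hba-a1, whereas the window of Hba-x held a GATAA and no CCAAT. Over 250 bases before the start, the other genes held a GATAA as well. Its nearer end lay 158 bases before the start in Hbb-y, 205 in Hbb-bs and 178 in Hba-a1. Over that length 22.6% of promoters held one. Of 32851 promoters in the same table, 31.7% held CACCC within 120 bases, 21.3% held CCAAT and 10.5% held GATAA, so each match alone is common. A match is a run of letters and not a measured binding site.

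The barcodes fell into 2 separate kinds by their beta-like globin. The embryonic share, Hbb-y plus Hbb-bh1 as a percentage of all Hbb- UMIs, was at least 25% in 219 Male (51.4% of the barcodes, Clopper-Pearson 46.5 to 56.2%) and 306 Female barcodes (54.0%, 49.8 to 58.1%), called embryonic-rich here. It was under 5% in 207 Male and 261 Female barcodes, called adult-type. No barcode in either library lay between 5 and 25%. Among embryonic-rich barcodes the median share was 93.3% in the Male library and 92.3% in the Female library, with lowest values of 46.5 and 61.1%. Among adult-type barcodes the highest share was 1.11% in the Male library and 2.08% in the Female library. The embryonic share cut these groups, so their difference in it is a description.

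Zeta globin, which took no part in the cut, followed the same division. Summed over barcodes, Hba-x made up 33.8 and 28.7% of alpha-like UMIs in Male and Female embryonic-rich barcodes and 0.0226 and 0.0510% in adult-type barcodes. In single embryonic-rich barcodes its share ran from 8.02 to 74.4% (median 31.5%) in the Male library and from 1.81 to 83.9% (median 26.1%) in the Female library. In adult-type barcodes the highest value was 0.296% in the Male library and 1.89% in the Female library. The ranges were apart in the Male library, and in the Female library the lowest embryonic-rich barcode lay just under the highest adult-type barcode. Embryonic-rich barcodes thus combined nearly all of their beta-like UMIs from embryonic genes with mostly adult alpha chains.

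**Figure D1:**
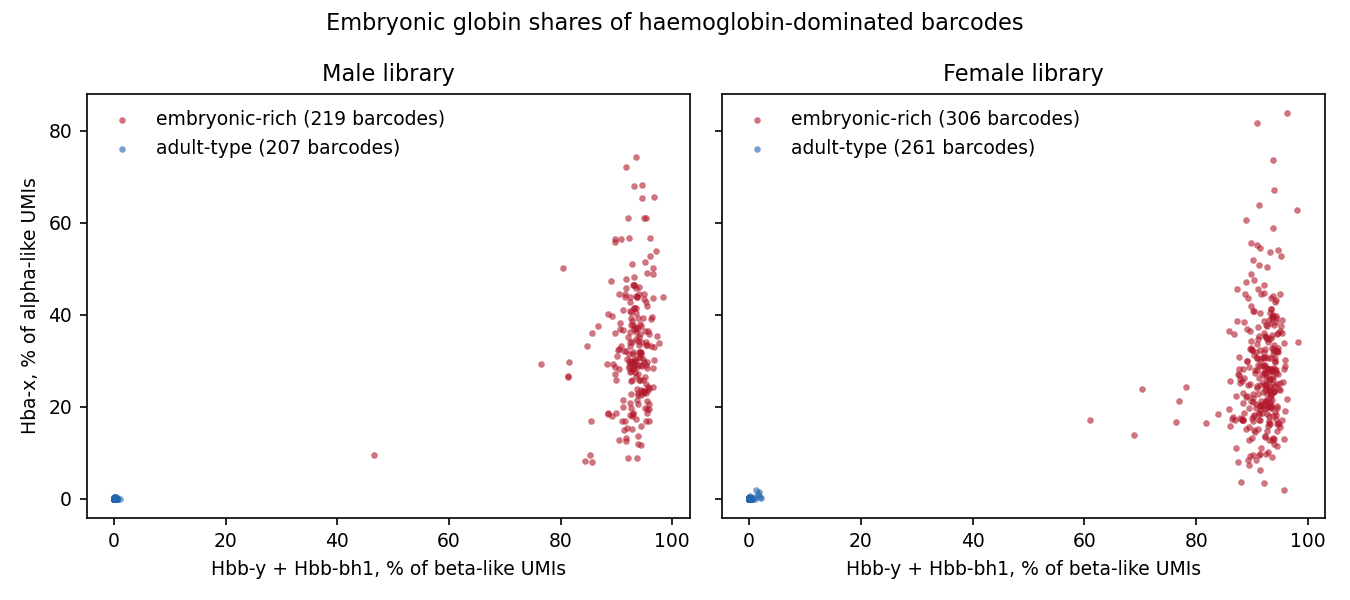
Each point is 1 haemoglobin-dominated barcode, with the share of Hbb-y plus Hbb-bh1 in its beta-like UMIs (x axis, %) and of Hba-x in its alpha-like UMIs (y axis, %), in the Male (left) and Female (right) library. Adult-type barcodes sit at the origin and embryonic-rich barcodes spread from 8.02 to 74.4% (Male) and 1.81 to 83.9% (Female) on the y axis, with no barcode between 5 and 25% on the x axis.

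Hbb-y carried the embryonic beta-like signal. It had 884234 and 1200135 UMIs in Male and Female embryonic-rich barcodes, 74.3 and 69.97% of their globin UMIs, and 473 and 791 UMIs in adult-type barcodes. The median embryonic-rich barcode held 4050.0 and 3933.5 Hbb-y UMIs, against 2 and 2 in the median adult-type barcode. Hbb-bs was the reverse, with a median of 123 and 130.5 UMIs in embryonic-rich barcodes, against 1429 and 1614 in adult-type barcodes. Hbb-bh1 was a trace component with 2112 and 3320 UMIs in embryonic-rich barcodes, 0.221 and 0.252% of beta-like UMIs, and 66 and 202 UMIs in adult-type barcodes. Hbb-bh2 had 5 and 1 UMIs in embryonic-rich barcodes and 2 and 1 in adult-type barcodes. The adult genes were used unequally as well. Hbb-bs took 46.9 and 43.1% of the Hbb-bs plus Hbb-bt UMIs in embryonic-rich barcodes and 67.1 and 66.5% in adult-type barcodes. Hba-a1 took 65.1 and 65.5% of the Hba-a1 plus Hba-a2 UMIs in embryonic-rich barcodes and 55.8 and 55.4% in adult-type barcodes. Both differences had the same direction in each library. Over the last 300 bases, where 3′ reads fall, the Hbb-bs and Hbb-bt transcripts were 86.1% and the Hba-a1 and Hba-a2 transcripts 89.6% identical, so how reads were divided within each pair is uncertain. Hbb-bs and Hbb-y were 65.4% and Hba-a1 and Hba-x 57.9% identical there. Alpha-like genes gave 19.5 and 23.2% of globin UMIs in embryonic-rich barcodes and 23.4 and 26.9% in adult-type barcodes.

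Zeta use varied within the embryonic-rich barcodes. Among those with under 500 genes, Male barcodes with an Hba-x share under 20% (33 barcodes), of 20 to 40% (110) and of 40% or more (34) had Hbb-bh1 at 0.114, 0.182 and 0.253% of beta-like UMIs. Female barcodes in the same ranges (63, 140 and 16 barcodes) had 0.216, 0.192 and 0.447%. In both libraries the range with most zeta held most beta-h1, but in the Female library the middle range was the lowest. Hmox1, which opens the haem ring, was at 1485, 1903 and 2330 CPM across these Male ranges and at 1437, 1798 and 3145 CPM across the Female ranges, an increase at each step. Malat1, a nuclear RNA, was lowest in the range with most zeta, at 74609.8, 90229 and 56022 CPM across the Male ranges and 113763, 94699 and 63853 CPM across the Female ranges. These 3 ranges share their libraries and differ in number of barcodes, and were not tested.

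The globin RNA of the near-empty barcodes had nearly the mix of the haemoglobin-dominated barcodes. Embryonic genes made up 63.7 and 62.1% of beta-like UMIs in Male and Female haemoglobin-dominated barcodes and 63.4 and 61.1% in near-empty barcodes. Globin UMIs were 81.0 and 79.7% of the UMIs of the haemoglobin-dominated barcodes, 2.20 and 2.74% of those of near-empty barcodes and 0.0585 and 0.0690% of those of reference barcodes, the last of which the rule capped.

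Embryonic-rich barcodes held more RNA. Their median was 6523 and 7042 UMIs in Male and Female barcodes, against 3382 and 3835 in adult-type barcodes. Median genes were 351 and 400 in embryonic-rich barcodes and 261 and 248 in adult-type barcodes, and median non-globin UMIs were 980.0 and 1100.0 against 566 and 494. At 8000 UMIs or more there were 63 Male and 108 Female embryonic-rich barcodes but 0 and 1 adult-type barcodes. Reference barcodes had medians of 5153 and 5201 UMIs and 2107 and 2164 genes. Both kinds of haemoglobin-dominated barcode thus held far fewer genes than reference barcodes, the embryonic-rich ones at a higher median UMI count. This gap follows in part from the rule, which selected barcodes whose UMIs came largely from a few globin genes. Median non-globin UMIs were 5149 and 5196.5 in Male and Female reference barcodes, far above those of both kinds. Numbers of genes were not compared at equal non-globin UMIs. Most haemoglobin-dominated barcodes had under 500 genes, 373 of 426 (87.6%) in the Male library and 470 of 567 (82.9%) in the Female library. A filter at 500 genes would remove them.

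**Figure D2:**
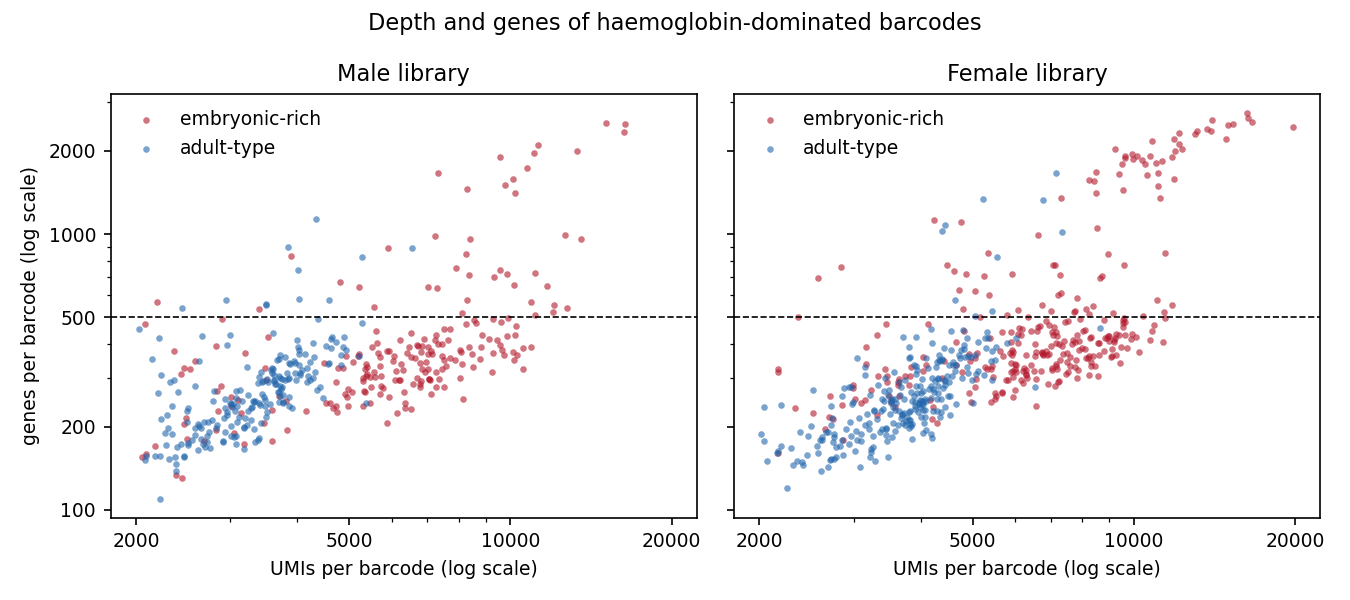
Each point is 1 haemoglobin-dominated barcode, with UMIs (x axis, log scale) and genes (y axis, log scale), in the Male (left) and Female (right) library, and the dashed line marks 500 genes. Embryonic-rich barcodes reach higher UMI counts (medians 6523 and 7042, against 3382 and 3835 for adult-type barcodes), and a tail of barcodes lies above 500 genes.

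A tail of 53 Male and 97 Female barcodes had 500 or more genes, of which 42 and 87 were embryonic-rich. Just inside the rule, at 50 to 55% globin, there were 8 Male and 24 Female barcodes with medians of 1938.5 and 1985.5 genes. Just outside it, at 45 to 50%, there were 13 and 38 barcodes with medians of 2033 and 1868 genes. At 80 to 90% globin there were 309 and 406 barcodes with medians of 275 and 309.5 genes. Doublets were not called, since a barcode of this tail cannot be told apart from a red cell caught with another cell.

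Levels of non-globin genes are given as CPM over non-globin UMIs, summed over all barcodes of a kind in a library. Differences are log2 ratios ± SE over both libraries from edgeR's quasi-likelihood test with the library as a block, called at a Benjamini-Hochberg adjusted p under 0.05 over all genes tested. The block takes out what separates the 2 pools, in which pool and sex cannot be told apart. These p-values rest on how far the difference between kinds of barcode varied between only 2 pools. The spread of each gene was estimated together with that of all genes tested. A small p-value thus does not rest on the 2 pools of that gene alone. Of 5659 genes with a mean of at least 20 CPM, 547 (9.67%) were higher and 4356 (77.0%) lower in haemoglobin-dominated than in reference barcodes. The median gene was at -1.10 log2. A gene low in reference and near-empty barcodes could be tested only if it was high in haemoglobin-dominated barcodes. Counts and medians of erythroid lists below therefore lean towards higher. The counts of each list are to be read against the 9.67% higher and 77.0% lower over all genes tested. With TMM scaling, which centres the median gene near -0.04, 1101 (19.5%) were higher and 308 (5.44%) lower, and all 547 genes called higher by CPM stayed higher. Most lower calls thus depend on the scaling. Against near-empty barcodes, in the same fit and with the same haemoglobin-dominated sums, 571 genes (10.1%) were higher and 4051 (71.6%) lower, and with TMM scaling 1065 (18.8%) and 275 (4.86%). The genes named first were higher against both, a rule that 524 genes met (9.26%), and 3967 genes (70.1%) were lower against both.

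The 12 genes furthest above the reference included an enzyme of haem synthesis, red cell membrane proteins and the theta genes of the alpha globin locus. Alas2, the erythroid enzyme that starts haem synthesis, was at 4048 and 3666 CPM in Male and Female haemoglobin-dominated barcodes, 0.433 and 0.390 CPM in reference barcodes and 16.8 and 19.3 CPM in near-empty barcodes, a log2 ratio of 13.18 ± 0.19 over reference barcodes (adjusted p = 1.1e-19, edgeR). Hsd3b6, a 3-beta-hydroxysteroid dehydrogenase, was at 1303 and 1097 CPM, against 0.147 and 0.171 CPM in reference barcodes (12.84 ± 0.19). For both genes both libraries of haemoglobin-dominated barcodes lay far above both of the reference and the near-empty barcodes. Tspo2, an erythroid membrane protein of the translocator family (12.30 ± 0.23), Pdzk1ip1 (12.21 ± 0.18), Slc4a1, the anion exchanger band 3 (11.87 ± 0.17), Trim10, a RING finger protein of erythroid cells (11.66 ± 0.21) and Kel, the Kell blood group protein (10.85 ± 0.40), followed. So did the theta globin genes Hbq1a (12.07 ± 0.44) and Hbq1b (11.02 ± 0.37), which lie beside the alpha genes and which the rule did not use. These genes are close relatives, so how reads were divided between them is uncertain. The unnamed gene Gm32051 (11.78 ± 0.36) was also among the 12 highest.

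Most tested enzymes of haem synthesis were higher. Of 15 measured genes, 12 could be tested, of which 9 were higher and 2 lower (median log2 2.61, against -1.10 over all genes). Fech, which inserts iron into the ring, was at 1573 and 1463 CPM in haemoglobin-dominated barcodes, against 16.5 and 16.8 CPM in reference barcodes (6.51 ± 0.13). Urod (3.08 ± 0.15), Alad (2.14 ± 0.18), Cpox (2.06 ± 0.25) and Ppox (1.66 ± 0.24), which act between Alas2 and Fech, were higher as well. So was Abcb10, a mitochondrial transporter of the pathway (3.47 ± 0.19). Alas1, the enzyme of other cells, was too low to test at 12.2 and 7.67 CPM, against 15.1 and 14.7 CPM in reference barcodes. Tmem14c (-0.65 ± 0.19) and Clpx (-0.82 ± 0.25) were called lower, and with TMM scaling neither call held.

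Iron handling was led by ferritin. Of 10 genes tested among 16, 7 were higher and 2 lower (median 2.68). Fth1, the ferritin heavy chain, was at 63924 and 53830.2 CPM in haemoglobin-dominated barcodes, against 932 and 847 CPM in reference barcodes (6.05 ± 0.13). Ftl1, the light chain, was at 59601 and 45661 CPM, against 2436 and 2353 CPM (4.45 ± 0.13). Slc25a37, mitoferrin-1, which carries iron into the mitochondrion, was at 1408 and 960.2 CPM, against 12.9 and 12.02 CPM (6.54 ± 0.15). Ncoa4, the receptor that takes ferritin to autophagy (5.63 ± 0.13), Glrx5 (3.75 ± 0.14) and Iscu (1.60 ± 0.15) of iron-sulphur cluster assembly, and Tfrc, the transferrin receptor (1.51 ± 0.27), were also higher. The genes called lower, Pcbp1 (-0.90 ± 0.15) and Pcbp2 (-0.50 ± 0.15), encode poly(C)-binding proteins, and with TMM scaling Pcbp2 was called higher. Tfrc itself stayed low, at 26.7 and 58.3 CPM in haemoglobin-dominated barcodes, against 13.8 and 17.1 CPM in reference barcodes.

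Every tested gene of the red cell membrane list was higher, 17 of 17 tested among 26 measured (median 7.65), against 9.67% of all genes tested. Slc4a1 was at 878 and 712 CPM, against 0.239 and 0.179 CPM in reference barcodes. Besides Kel, Epb42 or protein 4.2 (10.70 ± 0.41), Rhd of the Rh complex (9.90 ± 0.20), Ermap (9.78 ± 0.40) and Xk, the partner of Kell (7.65 ± 0.34), were among the highest. Genes that many cells use, such as Add1 of adducin (0.62 ± 0.17) and Cd47 (0.63 ± 0.18), were higher by much less. The 9 genes that could not be tested, Sptb and Ank1 among them, were below 20 CPM on average over the sums. Members near 0 CPM in the reference, such as Slc4a1, passed that limit only through the haemoglobin-dominated barcodes. The 17 of 17 and the median thus follow in part from the limit. The water channel Aqp1 had 1 UMI in the Male and 0 in the Female haemoglobin-dominated barcodes.

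Among 13 tested genes of redox defence and gas exchange, 10 were higher and 2 lower (median 3.43). Car2, carbonic anhydrase 2, was at 3630.0 and 2877 CPM, against 3.31 and 3.001 CPM in reference barcodes (10.00 ± 0.16). Bpgm, which makes the phosphate that lowers the oxygen affinity of haemoglobin, was at 4936 and 4410 CPM, against 32.1 and 32.1 CPM (7.18 ± 0.14). Prdx2, the red cell peroxiredoxin, was at 10936 and 8481 CPM, against 1253 and 1249 CPM (2.95 ± 0.13). Blvrb, biliverdin reductase B (6.63 ± 0.14), Hmox1 (6.12 ± 0.13), Gpx1 (4.76 ± 0.15) and Cat, catalase (3.43 ± 0.14), were higher as well. The methaemoglobin reductase Cyb5r3 was called lower (-0.94 ± 0.27), and not with TMM scaling, and Txn1, thioredoxin, was called lower by CPM and higher with TMM scaling.

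Genes of terminal maturation, which act in ubiquitin tagging, autophagy and the clearing of mitochondria, were mostly higher, 17 of 19 tested, with 1 lower (median 2.65). Ube2l6, a ubiquitin-conjugating enzyme, was at 1447 and 1193 CPM, against 4.99 and 4.27 CPM in reference barcodes (8.15 ± 0.14). Bnip3l, the mitophagy receptor of reticulocytes, was at 2633 and 2321 CPM, against 207 and 205 CPM (3.58 ± 0.12). Ube2o, which tags unneeded proteins in reticulocytes (4.18 ± 0.14), Gabarapl2 (3.52 ± 0.16) and Map1lc3b (3.29 ± 0.13) of the autophagosome, and Bcl2l1, the survival factor Bcl-xL (3.28 ± 0.16), moved the same way. Ulk1, which starts autophagy, was the gene called lower (-0.80 ± 0.36).

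Erythroid transcription factors were mixed. Of 22 measured genes 12 could be tested, 6 higher and 4 lower (median 0.76). Tal1, a basic helix-loop-helix factor of blood formation, was at 581 and 425 CPM, against 0.948 and 0.545 CPM in reference barcodes (9.41 ± 0.16). Its relative Lyl1 (7.43 ± 0.38), their partner Lmo2 (2.18 ± 0.19), Foxo3 (2.64 ± 0.23), Klf3 (1.73 ± 0.18) and Trim10 were the others that were higher. Bcl11a, a repressor of embryonic globin genes in definitive cells, was at 29.2 and 46.0 CPM, against 104 and 133 CPM in reference barcodes (-1.62 ± 0.22). Ldb1, Rcor1 and E2f4 were also called lower by CPM, and of the 4 only Bcl11a stayed lower with TMM scaling.

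**Figure D3:**
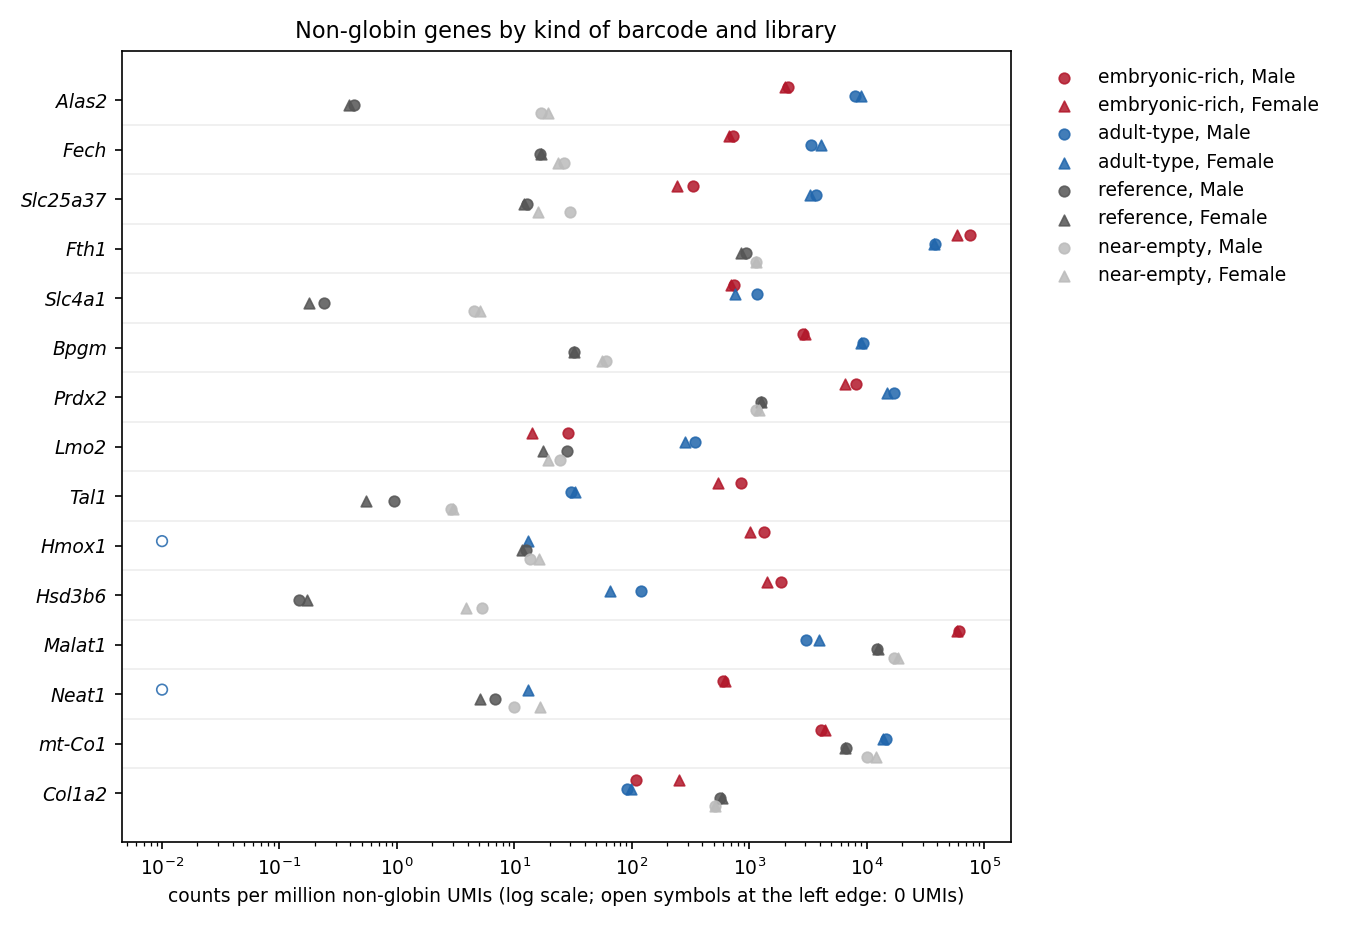
Each symbol gives 1 gene's level in 1 library (circles Male, triangles Female) in CPM on a log axis, in embryonic-rich, adult-type, reference and near-empty barcodes, with open symbols at the left edge for 0 UMIs. Alas2 lies at 2155 and 2029 CPM in embryonic-rich and 8033 and 9023 CPM in adult-type barcodes, far above 0.433 and 0.390 CPM in reference barcodes.

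Genes of other programmes are read against the 77.0% of all tested genes called lower by CPM, at a median of -1.10. With 13 genes tested in each list, glycolysis and mitochondrially encoded genes were called lower at shares near that. Cell cycle genes were called lower in a larger share. Cell cycle genes were lower for 18 of 19 tested (median -1.39), and 5 of them stayed lower with TMM scaling. Top2a was at 105 and 187 CPM, against 441 and 533 CPM in reference barcodes (-1.70 ± 0.17). The exception was Cdkn1b, the cell cycle inhibitor p27, at 114 and 103 CPM, against 35.2 and 30.9 CPM (1.72 ± 0.17). Mki67 was called lower at -0.48 ± 0.18 and higher at 0.58 with TMM scaling, so its direction is not settled. Glycolysis genes were higher for 3 of 13 and lower for 8 (median -0.98). Apart from Bpgm the higher genes were Hk1, hexokinase 1 (1.47 ± 0.29), and Gapdh (0.36 ± 0.12), and with TMM scaling none of the 13 was lower. Mitochondrially encoded genes were lower for 9 of 13 (median -0.68), and with TMM scaling 5 were higher and none lower. The rule capped mitochondrial UMIs at 10% in reference barcodes only. Haemoglobin-dominated barcodes had no such limit and reached 45.7 and 47.7% of non-globin UMIs, so this comparison is a description. Their summed level was 49166 and 51014 CPM in haemoglobin-dominated barcodes, 66520 and 66834 CPM in reference barcodes and 116781 and 140211 CPM in near-empty barcodes.

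Translation genes split. Of 18 tested, 8 were higher and 9 lower (median -0.38), and with TMM scaling 10 were higher and none lower. Eif2ak1, the haem-regulated kinase that holds back translation when haem is short, was at 102 and 90.5 CPM, against 25.3 and 28.9 CPM in reference barcodes (1.80 ± 0.19). Ppp1r15a, which reverses that brake, was at 447 and 324 CPM, against 14.4 and 12.9 CPM (4.80 ± 0.15). Pabpc1, the poly(A)-binding protein, was at 3032 and 2785 CPM, against 408 and 455 CPM (2.75 ± 0.12). Tpt1, a widely expressed tumour protein, was at 22047 and 17518 CPM, against 6978 and 6129.5 CPM (1.59 ± 0.11).

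The genes furthest below the reference, among those at 50 CPM or more there, were lower by less than the erythroid genes were higher. Asph (-2.62 ± 0.33), Dlk1 (-2.61 ± 0.31), Fjx1 (-2.58 ± 0.33), Igfbp3 (-2.46 ± 0.27), Kif11 (-2.40 ± 0.29), Tnfaip1 (-2.40 ± 0.34), Dcn (-2.38 ± 0.26) and Hist1h2ap (-2.36 ± 0.30) were the 8 lowest. Dcn, the matrix proteoglycan decorin, was at 19.5 and 26.1 CPM, against 131 and 117 CPM in reference barcodes. All 8 stayed lower with TMM scaling. RNA of other cells was nevertheless present. The 8 mesenchyme markers summed to 637 and 1261 CPM in haemoglobin-dominated barcodes, 3007 and 3162 CPM in reference barcodes and 2745 and 2776 CPM in near-empty barcodes. In barcodes under 500 genes they summed to 391 and 446 CPM. Other marker lists were low, with sums of 53.5 and 47.5 CPM for endothelium (reference 107 and 53.9), 2.43 and 16.9 CPM for macrophages (34.4 and 16.9), 14.6 and 12.3 CPM for megakaryocytes and platelets (28.2 and 6.89) and 87.5 and 42.9 CPM for epithelium (94.96 and 48.7). Neutrophil and mast cell markers summed to 4.86 and 1.53 CPM (21.4 and 11.5), Schwann and neural crest markers to 4.86 and 0 CPM (15.6 and 16.6) and skeletal muscle markers to 4.86 and 3.07 CPM (24.7 and 45.4). S100a8, S100a9, Mpo, Elane, Ppbp, Gp1bb, Sox10, Myod1 and Myog had 0 UMIs. The part of this RNA in the calls was not tested beyond the values for barcodes under 500 genes, where 539 of 5420 genes were higher (9.94%), 510 of them among the 547, and 4408 were lower (81.3%).

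**Figure D4:**
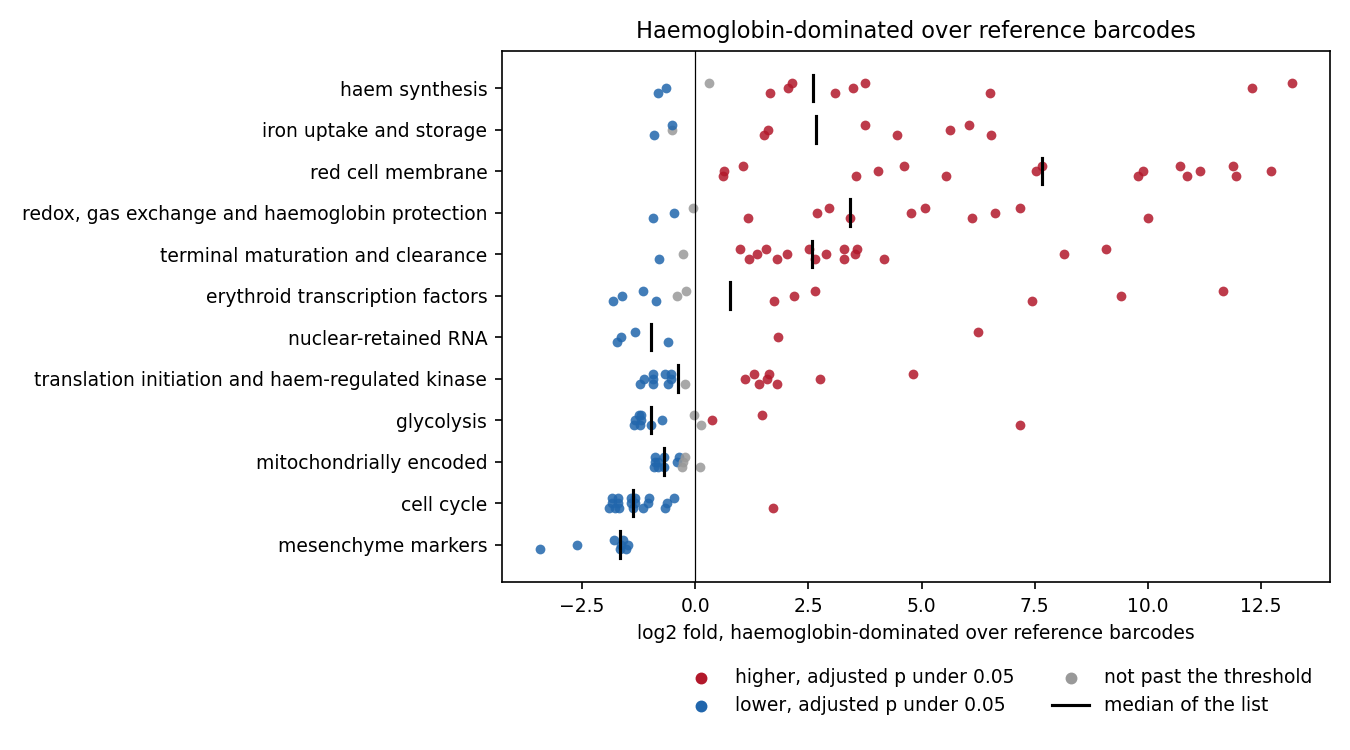
Each point is the log2 ratio of 1 gene, haemoglobin-dominated over reference barcodes (x axis), in the gene lists on the y axis, coloured by its call at an adjusted p under 0.05, and the black bar is the median of the list. The red cell membrane list has all 17 tested genes higher (median 7.65), and the mesenchyme markers all 8 lower (median -1.66). Red cell genes low in other barcodes could be tested only if high in haemoglobin-dominated barcodes.

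Embryonic-rich and adult-type barcodes were then compared by genes other than the globins that cut them. Of 3747 genes tested, 612 (16.3%) were higher and 360 (9.61%) lower in embryonic-rich barcodes, with a median gene at 0.39 log2. With TMM scaling, at a median of 0.13, 352 (9.39%) were higher and 439 (11.7%) lower. Among barcodes under 500 genes 425 of 2834 (15.0%) were higher and 499 (17.6%) lower, at a median of -0.24. Of the 612 genes, 362 were higher there too and 6 were lower, and of the 360, 323 were lower there too. Of the 612 genes 609 were higher in each library, and of the 360 genes 359 were lower in each. DESeq2 called 54 higher and 219 lower. Genes named below kept their call among barcodes under 500 genes unless said otherwise. Counts for the lists below are to be read against these shares over all genes. Sizes could differ. Barcodes under 500 genes held 158137 of 278841 Male and 206014 of 499339 Female non-globin UMIs of embryonic-rich barcodes. For adult-type barcodes these were 115476 of 132459 and 132247 of 152618. The haem synthesis genes summed to 4264 and 4019 CPM in embryonic-rich barcodes, and to 4958 and 5873 CPM under 500 genes. In adult-type barcodes they summed to 14495 and 15784.5 CPM, and to 15042 and 16983 CPM.

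Alas2 and Fech, the first and the last enzyme of haem synthesis, were lower in embryonic-rich than in adult-type barcodes. Alas2 was at 2155 and 2029 CPM in Male and Female embryonic-rich barcodes, against 8033 and 9023 CPM in adult-type barcodes (-2.03 ± 0.13, adjusted p = 6.9e-54, edgeR). Fech was at 732 and 673 CPM, against 3344 and 4049 CPM (-2.41 ± 0.13). Both libraries of a kind lay together and the kinds did not overlap. Of 13 genes of the pathway tested, 6 were lower and 2 higher (median -0.84). Tspo2 (-2.26 ± 0.19), Urod (-2.20 ± 0.21), Alad (-2.50 ± 0.31) and Ppox (-2.25 ± 0.40) were the other lower genes. Abcb10 went the other way, at 122 and 160 CPM in embryonic-rich barcodes, against 30.2 and 19.7 CPM in adult-type barcodes (2.51 ± 0.47). Tmem14c was the other gene called higher (1.01 ± 0.40), and neither TMM scaling nor barcodes under 500 genes kept that call.

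Iron genes were called lower more often than higher. Slc25a37 was at 329.9 and 244 CPM in embryonic-rich barcodes, against 3677 and 3302 CPM in adult-type barcodes (-3.63 ± 0.15). Ncoa4 (-2.12 ± 0.14), Glrx5 (-1.50 ± 0.13) and Iscu (-2.78 ± 0.26) were lower too. Fth1 was higher, at 76008 and 58918 CPM, against 38487 and 37184 CPM (0.82 ± 0.14), a call that DESeq2 did not make. Ftl1 did not pass, at 58711 and 40842 CPM against 61476 and 61428 CPM (-0.33 ± 0.14), and was called lower with TMM scaling. Pcbp2 was the other gene called higher (0.69 ± 0.26), and neither TMM scaling nor barcodes under 500 genes kept that call. In all 4 of 10 tested iron genes were lower and 2 higher (median -0.10), and among barcodes under 500 genes 4 and 2 of 11 at a median of 0.14. Over all genes tested 9.61% were lower and 16.3% higher, so the higher calls were near that share.

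The red cell surface differed gene by gene. Of 24 membrane genes tested, 9 were lower and 6 higher (median -0.42), and among barcodes under 500 genes 8 and 6 of 23 (median -0.07). Mpp1, the membrane scaffold p55, was at 50.2 and 46.1 CPM in embryonic-rich barcodes, against 1132 and 1114 CPM in adult-type barcodes (-4.54 ± 0.23). Cd47, the signal that spares cells from phagocytosis (-2.71 ± 0.35), Sptb, beta-spectrin (-2.73 ± 0.44), Rhd (-1.87 ± 0.21) and Epb41, protein 4.1 (-1.73 ± 0.14), were lower. Slc4a1 did not pass at 742 and 699 CPM against 1163 and 754 CPM (-0.38 ± 0.15, adjusted p = 0.051, edgeR), and the 2 libraries differed in size of the gap. Ermap (2.49 ± 0.45), Xk (1.60 ± 0.41), Add2 (1.45 ± 0.47), Cldn13 (1.26 ± 0.49), Epb42 (0.96 ± 0.34) and Cd59a, which blocks complement (0.91 ± 0.25), were higher. With TMM scaling 3 of these 6 were higher, and Add2 did not pass among barcodes under 500 genes.

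Maturation genes were mostly lower in embryonic-rich barcodes, 16 of 21 tested, with 2 higher (median -1.47). Ube2c, a ubiquitin-conjugating enzyme of mitotic exit, was at 118 and 172 CPM in embryonic-rich barcodes, against 2989.6 and 2942 CPM in adult-type barcodes (-4.30 ± 0.16). Gabarapl2 (-3.12 ± 0.14), Bcl2l1 (-2.48 ± 0.24), Wdr26 (-2.19 ± 0.23), Ube2o (-2.04 ± 0.18) and Bnip3l (-1.33 ± 0.13) were lower. Isg20 had 0 UMIs in embryonic-rich barcodes and 14 and 4 UMIs in adult-type barcodes. Btg2, a growth inhibitor (1.99 ± 0.50), was higher. The Map1lc3b and Ube2h calls were lost among barcodes under 500 genes.

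Redox genes were lower for 7 of 13 tested and higher for 1 (median -0.83). Gpx1 was at 2317 and 1832 CPM, against 11453 and 11159 CPM (-2.46 ± 0.13), and was uneven among adult-type barcodes, with a median of 3 UMIs and a highest value of 66 in the Male library and 2 and 55 in the Female library. Txnrd2, a mitochondrial thioredoxin reductase (-3.20 ± 0.25), Bpgm (-1.65 ± 0.12), Car2 (-1.13 ± 0.12) and Prdx2 (-1.12 ± 0.12) were lower. Bpgm was at 2855 and 2996 CPM in embryonic-rich barcodes, against 9316 and 9036 CPM in adult-type barcodes. Hmox1 was the gene that was higher. It had 372 and 507 UMIs in embryonic-rich barcodes (1334 and 1015 CPM) and 0 and 2 UMIs in adult-type barcodes, a pooled ratio of 161 (exact Poisson 95% interval 44.4 to 1332, counting error only).

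**Figure D5:**
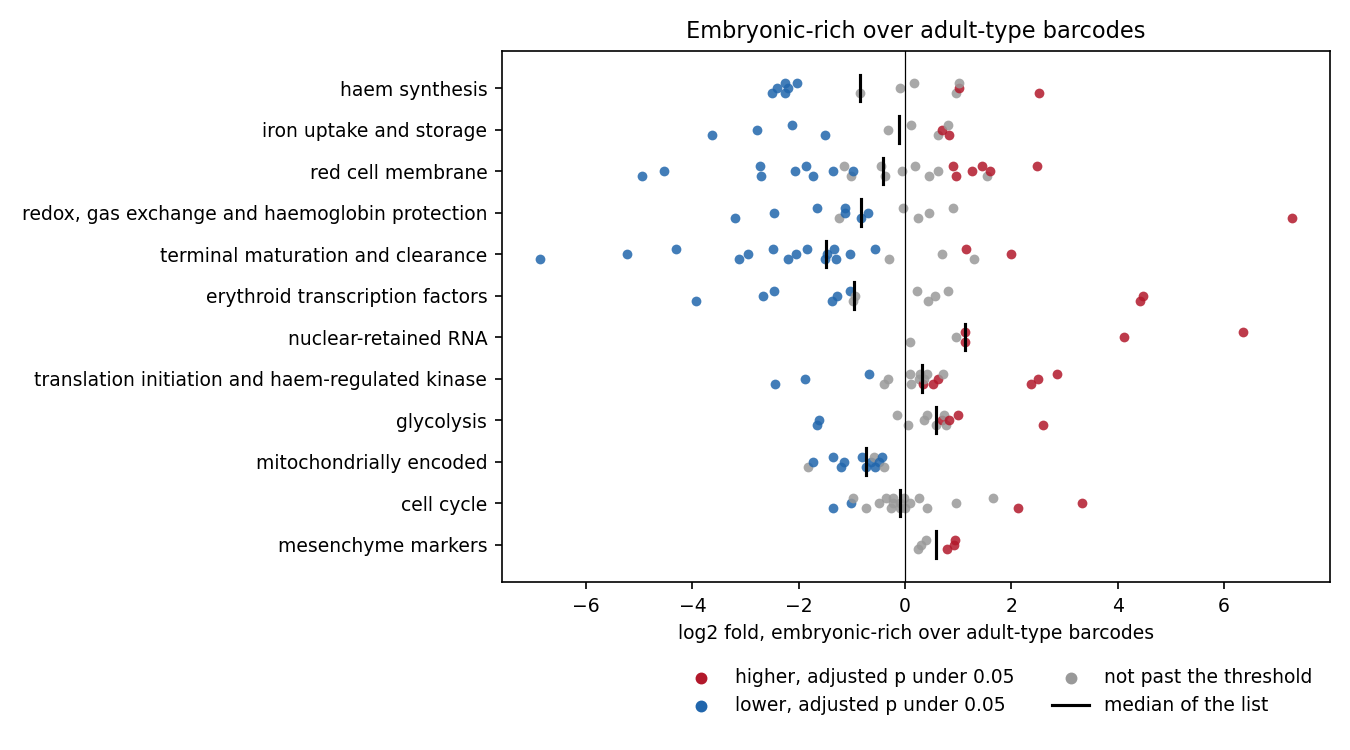
Each point is the log2 ratio of 1 gene, embryonic-rich over adult-type barcodes (x axis), in the gene lists on the y axis, coloured by its call at an adjusted p under 0.05, and the black bar is the median of the list. Terminal maturation genes lie mostly below 0 (16 of 21 lower), and Hmox1, Neat1 and Malat1 are among the points furthest to the right.

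Malat1 and Neat1, RNAs that stay in the nucleus, were higher in embryonic-rich barcodes. Malat1 was at 60809 and 58719.6 CPM in embryonic-rich barcodes, against 3027 and 3899 CPM in adult-type barcodes (4.11 ± 0.15). Reference barcodes, which are nucleated cells, had 12286 and 12603 CPM, and near-empty barcodes 17096 and 18505 CPM, so adult-type barcodes lay below both and embryonic-rich barcodes above both. The median barcode held 65 and 79.5 Malat1 UMIs when embryonic-rich and 1 and 1 when adult-type. Among barcodes under 500 genes the gap was wider, at 81044 and 97406 CPM against 1749 and 2533 CPM (5.39 on the log2 scale). Neat1 had 167 and 311 UMIs in embryonic-rich barcodes and 0 and 2 in adult-type barcodes, a pooled ratio of 87.6 (24.1 to 725). Xist, the X inactivation RNA, was at 603 CPM in Female embryonic-rich barcodes, 275 CPM in adult-type, 1346 CPM in reference and 1189 CPM in near-empty barcodes, and under 500 genes at 257 CPM in embryonic-rich and 166 CPM in adult-type barcodes. Of 6 nuclear RNAs tested, 4 were higher and 0 lower, and among barcodes under 500 genes only Malat1 and Neat1 passed. Mitochondrially encoded RNA was the reverse, with 10 of 13 genes lower and 0 higher (median -0.73; 12 of 13 and -1.61 among barcodes under 500 genes), and a sum of 35393 and 39931 CPM in embryonic-rich barcodes, against 78160.0 and 87277 CPM in adult-type barcodes. In the median barcode it was 1.65 and 1.84% of non-globin UMIs when embryonic-rich, against 6.53 and 6.56% when adult-type.

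Transcription factors were called lower more often than higher in embryonic-rich barcodes. Tal1 was at 843 and 545 CPM in embryonic-rich barcodes, against 30.2 and 32.8 CPM in adult-type barcodes (4.41 ± 0.33), and Lyl1 was at 169 and 162 CPM, against 7.55 and 6.55 CPM (4.47 ± 0.61). Lmo2, which bridges Tal1 to GATA factors, was at 28.7 and 14.0 CPM, against 347 and 282 CPM (-3.94 ± 0.36). Hemgn, hemogen (-2.67 ± 0.43), E2f2 (-2.46 ± 0.46) and Trim10 (-1.37 ± 0.20) were lower. Pdzk1ip1, which lies on the same strand of chromosome 4 as Tal1 (mm10, bases 115088708 to 115093899, with Tal1 at 115056426 to 115071755), was at 1459.6 and 1179.6 CPM in embryonic-rich barcodes, against 22.6 and 59.0 CPM in adult-type barcodes (4.94 ± 0.27). Hsd3b6 was at 1865 and 1412 CPM, against 121 and 65.5 CPM (4.15 ± 0.22). In all 6 of 14 tested factors were lower and 2 higher (median -0.96), and among barcodes under 500 genes 5 and 4 of 12 (median -0.34). Over all genes tested 9.61% were lower and 16.3% higher, so the higher calls were near that share. Among barcodes under 500 genes the shares over all genes were 17.6 and 15.0%.

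The genes with the highest ratio, by the rule for named genes, all had 0 UMIs in adult-type barcodes of both libraries. Against a floor of 3 counts over both libraries, Fam174b (146 and 248 UMIs in embryonic-rich barcodes) was at least 48.1-fold higher. On the same floor the bounds were 15.5-fold for Trib3, a pseudokinase of the stress response, 12.5-fold for Tspan18, 11.4-fold for Bbc3, the cell death factor Puma, 11.1-fold for Bcor, 11.0-fold for Acp5, 8.67-fold for Lmx1a and 7.20-fold for Nrtn, each as a minimum. In the list of translation genes and the haem-regulated kinase, Atf4, a transcription factor of the stress response to translational arrest, was at 585 and 449 CPM, against 15.1 and 118 CPM (2.85 ± 0.29). Ppp1r15a was at 613 and 399 CPM, against 98.1 and 78.6 CPM (2.50 ± 0.28). Eif4ebp1, a translation repressor, was higher by 2.37 ± 0.43, while the kinase Eif2ak1 did not pass (-0.33 ± 0.34). Of 18 translation genes tested, 6 were higher and 3 lower (median 0.31), with TMM scaling 3 and 3, and among barcodes under 500 genes 5 and 3 at a median of -0.17.

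The 8 genes with the lowest ratio included Pla2g16, Dcaf12, Ssx2ip, Dhrs11 and Mpp1. Pla2g16, a phospholipase, had 0 and 1 UMIs in embryonic-rich barcodes and 120 and 134 UMIs in adult-type barcodes, a pooled ratio of 0.00144 (exact Poisson 95% interval 3.6e-05 to 0.00811). Dcaf12 (-4.74 ± 0.35), Ssx2ip (-4.64 ± 0.36) and Dhrs11 (-4.63 ± 0.46) were the next of these. Cell cycle genes were few on either side, 2 of 20 tested higher and 2 lower (median -0.09). Cdkn1b was at 158 and 132 CPM in embryonic-rich barcodes, against 22.6 and 6.55 CPM in adult-type barcodes (3.32 ± 0.53). Mki67 was at 71.7 and 118 CPM, against 189 and 301 CPM (-1.36 ± 0.29). Glycolysis genes were higher for 4 of 13 and lower for 2 (median 0.58), with TMM scaling for 1 and 2, and among barcodes under 500 genes for 3 and 2 of 12 at a median of -0.72. The median thus changed sign without the tail of 500 or more genes. In the same barcodes the cell cycle median was -0.75, with 2 of 18 higher and 4 lower. The list of lineage genes was lower for 3 of 7 over all barcodes, Car2 and Cd24a among them. Mesenchyme markers were higher for 3 of 6 (Col1a2, Twist1 and Prrx1), and for 0 of 6 with TMM scaling and among barcodes under 500 genes. Their sum was 674 and 1414 CPM in embryonic-rich barcodes, against 559 and 760.1 CPM in adult-type barcodes.

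Hmox1, Alas2 and Hsd3b6, which already differed in the sums above, were also described barcode by barcode at equal depth. Each barcode was thinned to 300 non-globin UMIs, which left out 2 Male and 1 Female embryonic-rich and 14 and 40 adult-type barcodes. Hmox1 then had a UMI in 25.8 and 30.2% of embryonic-rich barcodes, in 0 of 193 and 0 of 221 adult-type barcodes (which allows shares of up to 1.55 and 1.36%), and in 0.229 and 0.304% of reference barcodes, which are not erythroid. Without thinning these shares were 42.5 and 53.6%, 0 and 0.766%, and 5.33 and 5.75%, at median depths of 980.0 and 1100.0, 566 and 494, and 5149 and 5196.5 non-globin UMIs. Alas2 had a UMI in 48.4 and 52.5% of thinned embryonic-rich barcodes, 85.5 and 92.3% of adult-type barcodes and 0.0117 and 0.0109% of reference barcodes. Hsd3b6 had one in 41.5 and 33.1%, 3.11 and 1.81%, and 0.00587 and 0%, the last of which allows up to 0.0163%. Not every gene was divided in this way. Slc4a1 had a UMI in 20.3 and 23.0% of thinned embryonic-rich barcodes and in 20.2 and 16.7% of adult-type barcodes. Unthinned shares were 85.4 and 89.9%, 94.7 and 96.9%, and 0.270 and 0.261% for Alas2, and 73.1 and 74.5%, 4.35 and 3.07%, and 0.0939 and 0.114% for Hsd3b6.

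Male and Female haemoglobin-dominated barcodes were compared without a test, since there was 1 library per sex. Among 1044 genes with at least 100 summed UMIs, the median Male over Female log2 ratio was -0.15, and 90% of ratios lay between -0.88 and 0.46. At least 2-fold apart were 6 genes higher in Male (0.575%) and 26 higher in Female barcodes (2.49%), Xist among them. Intervals are exact conditional Poisson 95% intervals for counting error. The 5 highest ratios included those of AY036118 (1.91, 1.74 to 2.08), Lars2 (1.73, 1.32 to 2.15), Gmpr (1.37, 0.79 to 1.97) and Gm42418 (1.35, 1.30 to 1.40). In reference barcodes the same ratios were 1.56 for AY036118, 0.81 for Lars2, 0.34 for Gmpr and 0.99 for Gm42418. In Male and Female near-empty barcodes Gm42418 was at 21531 and 8247 CPM and AY036118 at 2353 and 641 CPM, the same direction. Gmpr, which encodes a guanosine monophosphate reductase, was at 453 and 209.7 CPM in Male and Female adult-type barcodes.

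Y-linked genes, Xist and Tsix apart, the 5 lowest ratios were of Smarce1 (-1.55, -2.22 to -0.93), Chd4 (-1.53, -2.33 to -0.80), Zfhx4 (-1.47, -2.16 to -0.84), Twist1 (-1.45, -1.87 to -1.04) and Sparc (-1.39, -2.10 to -0.74). In barcodes under 500 genes Chd4 was at -0.69 (-1.89 to 0.41), Zfhx4 at -0.21 (-1.31 to 0.85) and Sparc at -0.28 (-1.59 to 0.97), while Smarce1 was at -1.84 (-3.27 to -0.63) and Twist1 at -1.17 (-2.03 to -0.37). There the median ratio over 511 genes was -0.02, with 4 genes 2-fold higher in Male and 1 in Female barcodes. Alas2 was less than 2-fold apart between the sexes, at 0.14 (0.05 to 0.23), and at -0.15 (-0.24 to -0.05) in barcodes under 500 genes. The Y-linked genes Ddx3y (29.2 CPM) and Eif2s3y (55.9 CPM) had UMIs in Male barcodes and 0 in Female barcodes, and Xist 0 UMIs in Male barcodes and 526 CPM in Female barcodes.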

How the data were processed

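Each library was deposited as 1 matrix of unnormalized UMI counts, which the authors made with Cell Ranger 3.1 on mm10, per the submitters' processing notes. The annotation version is not given in the sources used here. Both matrices list 31053 genes and all 6794880 barcodes, of which 1254850 Male and 1413965 Female barcodes held a UMI, so cells had not been called. Gene coordinates came from GENCODE release 21 of the mouse annotation, which held 30934 of the gene IDs, and promoter sequences from RefSeq on GRCm38.p6.

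Counts were summed per library and kind of barcode, without the Hba- and Hbb- genes, and library size was the non-globin UMIs of each sum. Genes with a mean of at least 20 CPM were tested in edgeR 4.0.16 (R 4.3.3) with glmQLFit and glmQLFTest, library as a block, Benjamini-Hochberg threshold 0.05. DESeq2 1.42.0, TMM scaling, other filters, globin, UMI and gene limits were the alternatives. Male over Female ratios were not tested. The fits were tested on simulated data. Named genes were the 12 highest and 8 lowest against both reference and near-empty barcodes (at least 100 UMIs summed, or 50 CPM in the reference), the 8 highest and 8 lowest of the embryonic comparison (at least 50 UMIs summed), the 5 highest and 5 lowest by sex, and the most abundant members of 24 lists with 294 genes, of which 282 were measured. Other list members were named by their call. Some genes that the rule names are not reported here. The barcodes, ranges and lists were chosen with earlier results of these data known. Intervals cover counting error only. P-values rest on how far differences between kinds of barcode varied between 2 pools, with a spread estimated together over all genes tested. Doublets were not called, and free RNA was not removed. Python 3.11.15, numpy 2.4.6, scipy 1.17.1 and pandas 2.3.3 were used.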

Additional observations from a re-analysis of the deposited data

How the results depend on the processing

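No paired analysis was possible between the sexes because each has 1 library, and fits between kinds of barcode had library as the block. Against reference barcodes the 547 higher and 4356 lower genes became 1101 and 308 with TMM scaling, 1044 and 159 with DESeq2, and 167 and 107 at a globin share of 90%, while a minimum of 50 CPM left 2046 lower and no filter gave 836 higher. Against near-empty barcodes the 571 and 4051 became 1065 and 275, 1018 and 144, and 164 and 66 under the first 3 of these, and 1927 were lower at 50 CPM. Between embryonic-rich and adult-type barcodes, 612 higher genes became 352 with TMM scaling, and DESeq2 gave 54 higher and 219 lower. The number of genes 2-fold apart by sex, 32 with Xist included, was counted afresh under each setting and does not follow the same genes. It was 16 at a globin share of 30%, and 5 at 70%, at 90% and under 500 genes. At 1.5-fold it was 193, at 50 UMIs 120 and at 200 UMIs 11. The number of barcodes was 8 Male and 47 Female at a globin share of 90% and 168 and 267 at 5000 UMIs. The embryonic share of beta-like UMIs was 63.1% in Male and 58.4% in Female barcodes at a globin share of 70%, 59.8 and 11.4% at 90%, 62.1 and 61.5% at 1000 UMIs, 90.9 and 85.2% at 5000 UMIs, 59.7 and 55.7% under 500 genes, 66.6 and 65.1% with at most 10% mitochondrial UMIs, 61.1% in Female barcodes at 30%, and 61.7 and 66.8% in near-empty barcodes of 10 to 50 UMIs. The cause of these changes was not tested, apart from filters that change which genes are tested.

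Directions turned for few named genes. Over reference barcodes mt-Co3 was at 0.76 under both TMM scaling and DESeq2, mt-Atp6 at 0.71 under both, Eef1a1 at 0.43 under both, Mki67 at 0.58 under both, Runx1 at 0.26 under both and 1.07 at a globin share of 90%, and Xist at 0.87 under DESeq2. Between embryonic-rich and adult-type barcodes DESeq2 put Tpt1 at -0.0025 and Xist at -0.21, and barcodes under 500 genes, an alternative chosen after seeing the data, put Twist1 at -0.51, Prrx1 at -0.44, Col1a2 at -0.63 and Kcnq1ot1 at -0.19. Among named genes, TMM scaling left 120 values on the same side of the threshold and barcodes under 500 genes 134. Depth limits genes under 20 CPM, a limit that left 12 of 22 erythroid transcription factors to be tested against reference barcodes.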
